A study of Mus musculus with 44 samples.

Results

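Macrophages (MFs) take up, bind, store and burn fatty acids through a set of genes that are textbook targets of the peroxisome proliferator activated receptors (PPARs). The 9 such genes described here were chosen by name, as Cd36, Lpl, Angptl4, Fabp4, Fabp5, Gpat3, Plin2, Cpt1a and Pdk4, and the rule that picks them uses no measured difference between groups. The names were, however, chosen with earlier results of these data known. Counts of members beside the share of all genes therefore describe the members and are no independent test. All 9 had a probe set annotated to that gene alone, among the 19938 genes measured this way, and the probe set with the highest mean stood for Fabp5, which had 2. Their levels were read as log2 array values in 44 one-colour Affymetrix arrays of MFs sorted from mouse muscle after injury by cardiotoxin, a snake venom toxin that kills muscle fibres, injected into the tibialis anterior.

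The WT animals were C57B6/J mice. The KO animals were C57B6/J mice with PPARg fl/fl alleles and LysM Cre+, so that Cre came from the Lyz2 locus of myeloid cells and both alleles of Pparg were floxed. CD45+ cells were enriched with magnetic beads, stained and sorted into an early inflammatory subset (Ly6C+ F4/80low) and a repair-type subset (Ly6C- F4/80high). Untreated Ly6C+ MFs came from day 1 (WT n = 4, KO n = 4), day 2 (WT n = 6, KO n = 5) and day 4 (WT n = 4, KO n = 4). Untreated Ly6C- MFs came from day 2 (WT n = 6, KO n = 5). Rosiglitazone, a synthetic PPARg agonist, was given to WT animals whose Ly6C+ (n = 3) and Ly6C- (n = 3) MFs were taken at day 2. The age of the animals and the dose of rosiglitazone were not given in the sources used here. Arrays were labelled as biological replicates, and the design text spoke of 3 animals without tying arrays to them, so the P values below measure the spread between arrays.

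PPARg binds DNA as a partner of a retinoid X receptor and switches genes on when fatty acids or drugs such as rosiglitazone occupy its pocket. In adipocytes it drives lipid storage, and in MFs it is known for control of lipid handling and of the inflammatory state. In the chain of steps, Lpl frees fatty acids from lipoprotein triglyceride, Angptl4 inhibits Lpl, Cd36 brings fatty acids and oxidised lipoproteins across the membrane, Fabp4 and Fabp5 carry them in the cytosol, Gpat3 makes the first glycerolipid on the way to triglyceride, Plin2 coats the lipid droplet, Cpt1a admits long-chain fatty acids to mitochondria, and Pdk4 turns down pyruvate use.

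Checks of the labels bear on what follows. Lyz2, which encodes lysozyme and holds Cre in the KO animals, averaged 9.49 to 9.72 (log2) in the 4 KO groups and 12.95 to 13.01 in the WT day 1, WT day 4 and rosiglitazone groups. In the untreated WT day 2 arrays it split by replicate number. Replicates 1 to 3 stood at 8.87 ± 0.17 (SD, n = 3) in the Ly6C+ and 9.18 ± 0.10 in the Ly6C- subset, below the KO means. Replicates 4 to 6 stood at 12.81 ± 0.19 and 12.86 ± 0.09. Lyz1, a second lysozyme gene, split the same arrays in the opposite sense. Its means in Ly6C+ and Ly6C- MFs were 11.97 and 12.12 in replicates 1 to 3, and 10.08 and 10.59 in replicates 4 to 6. The KO means at day 2 were 12.38 and 12.47. At both genes replicates 1 to 3 thus stood nearer to the KO means than to replicates 4 to 6. Whether these arrays carry the genotype of their label was not tested. The members' main differences that rest on WT day 2 arrays are therefore also given with replicates 1 to 3 alone and 4 to 6 alone, while the counts over gene lists and markers use all 6 arrays. The WT Ly6C+ day 2 arrays enter the subset, time, genotype and rosiglitazone comparisons alike, so these share them. The day 4 arrays carry the label Ly6C+ F4/80low, yet one probe set that reads both Ly6c1 and Ly6c2 averaged 9.88 in WT and 9.83 in KO there, against 11.91 in WT Ly6C+ and 8.78 in WT Ly6C- MFs at day 2. Adgre1, which encodes the other sorting marker, averaged 12.27 in both day 4 groups and 12.08 in day 2 WT Ly6C- MFs. These groups are therefore called labelled Ly6C+ below and were set against both day 2 subsets. Finally, the Pparg probe set did not mark the knockout, with means of 10.39 in KO and 10.31 in WT Ly6C+ MFs at day 2. Which exons it reads and which are floxed was not given in the sources used here, so it checks nothing. MF genes were at a high level in every group. The mean over 10 MF markers lay between 10.91 and 11.77 on every array, and Cd68 averaged between 12.58 and 12.91. Single markers were not level. In WT Ly6C- against Ly6C+ MFs at day 2, 3 were higher and 3 lower, where 22.2% and 23.0% of all genes were. In WT day 4 against day 2 Ly6C+ MFs, 8 were higher and 2 lower, where 23.8% and 26.0% of all genes were.

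The stretch just upstream of each start site is shown for Cd36, Plin2 and Cpt1a, which were higher in untreated Ly6C- MFs at day 2. It is also shown for Gpat3, which was lower there. The sequences are RefSeq windows on GRCm38.p6, of 250 bases, 5' to 3' along the gene, with the AGGTCA hexamer that nuclear receptors contact in capitals where it occurs on either strand:
Cd36, chr5:17835897-17836146, - strand: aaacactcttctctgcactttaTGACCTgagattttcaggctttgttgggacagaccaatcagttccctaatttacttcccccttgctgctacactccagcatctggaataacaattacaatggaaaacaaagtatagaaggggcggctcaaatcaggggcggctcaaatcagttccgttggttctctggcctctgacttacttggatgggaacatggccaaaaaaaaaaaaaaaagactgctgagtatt
Plin2, chr4:86670060-86670309, - strand: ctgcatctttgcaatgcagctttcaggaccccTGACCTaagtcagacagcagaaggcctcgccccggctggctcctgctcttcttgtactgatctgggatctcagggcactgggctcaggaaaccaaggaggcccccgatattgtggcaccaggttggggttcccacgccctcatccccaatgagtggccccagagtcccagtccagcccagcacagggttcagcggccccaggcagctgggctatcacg
Cpt1a, chr19:3323051-3323300, + strand: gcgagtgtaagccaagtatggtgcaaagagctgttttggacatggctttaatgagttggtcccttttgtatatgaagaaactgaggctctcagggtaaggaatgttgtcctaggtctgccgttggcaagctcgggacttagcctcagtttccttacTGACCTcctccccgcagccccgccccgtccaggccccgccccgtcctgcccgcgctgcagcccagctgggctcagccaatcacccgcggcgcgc
Gpat3, chr5:100845979-100846228, + strand: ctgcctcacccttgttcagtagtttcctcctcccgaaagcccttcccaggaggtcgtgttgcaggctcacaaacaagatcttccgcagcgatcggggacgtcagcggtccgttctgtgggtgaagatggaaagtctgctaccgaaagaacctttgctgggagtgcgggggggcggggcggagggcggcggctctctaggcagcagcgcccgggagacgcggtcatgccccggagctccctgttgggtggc
RefSeq windows were listed for 5 of the 9 members, the other one being Pdk4. Cd36, Plin2 and Cpt1a each held the hexamer 1 time, written TGACCT because it lay on the reverse strand, with its first base 228, 218 and 94 bases before the start. Gpat3 and Pdk4 held none. In all 32851 windows of this length the hexamer occurred in 14%. A direct repeat of it with 1 base between, the classical PPAR element, was found in 0.0335% of all windows and one with looser AGGNCA copies in 0.338%, and in 0 of the 5 members for either. All 3 motifs were searched on both strands, and a match to the repeat is also a match to its hexamer. These letters describe the windows and locate no bound site.

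**Figure D1:**
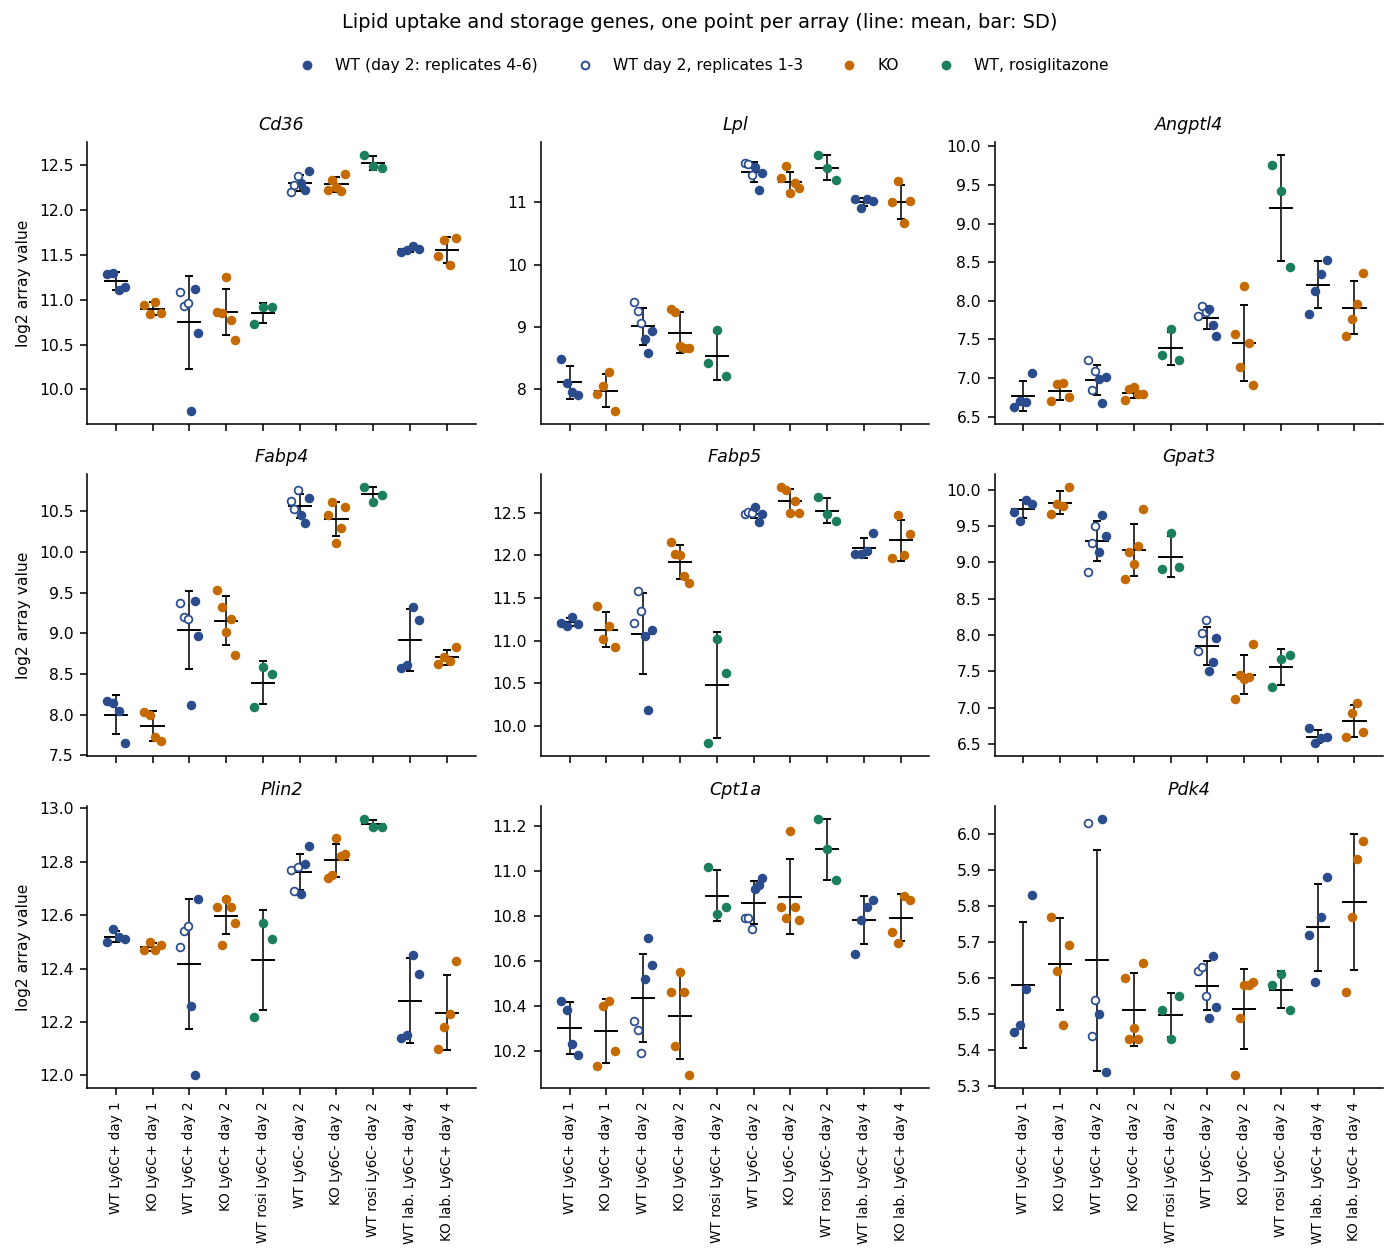
Log2 array values of the 9 genes (y axes, each panel with its own range) in the 10 groups (x axes), with 1 point per array, the group mean as a line and the SD as a bar; open circles are WT day 2 replicates 1 to 3. Lpl, Cd36, Fabp4 and Fabp5 stood highest in the 3 Ly6C- groups, Gpat3 was highest at day 1, and Pdk4 stayed between 5.33 and 6.04 on every array.

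The members differed widely in how far they moved. Between the lowest and the highest group mean, Lpl spanned 3.60 (log2), a 12.1-fold range, Gpat3 3.22, Fabp4 2.85, Angptl4 2.43, Fabp5 2.16 and Cd36 1.78. Cpt1a spanned 0.81 and Plin2 0.71. Plin2 lay between 12.00 and 12.96 on all 44 arrays. Pdk4 spanned 0.31, and its values overlapped between every pair of groups next to each other in rank. Its mean over the 44 arrays was 5.61, below the median of 6.88 over all gene means. Whether its probe set detects the transcript at this level was not tested. The rosiglitazone Ly6C- group had the highest mean for 6 of the 9 genes, namely Cd36, Lpl, Angptl4, Fabp4, Plin2 and Cpt1a. The share of all genes highest in this group was not counted. For Lpl, Angptl4, Fabp4 and Cpt1a its arrays overlapped the group next in rank. Only Angptl4 passed against untreated Ly6C- MFs, as described below.

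Ly6C- MFs are the later, repair-type subset, and the first comparison asked how their lipid genes differ from those of the Ly6C+ inflammatory subset of the same day. At day 2 the uptake and binding genes were higher in Ly6C- MFs of WT muscle, Lpl most of all, with Plin2 and Cpt1a higher by less, while Gpat3 was lower and Pdk4 did not pass the test. In WT 8 of the 9 members passed (limma, adjusted p under 0.05), where 45.2% of all genes did. Of these, 7 were higher, where 22.2% of all genes were, and 1 was lower, where 23.0% were. The median difference over the members was 0.81 (log2), against -0.07 over all genes.

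Lpl, the lipase that frees fatty acids from circulating lipoproteins, ran from 8.57 through a median of 9.0 to 9.40 in the 6 WT Ly6C+ arrays and from 11.20 through 11.53 to 11.63 in the 6 Ly6C- arrays. The groups were far apart, with a gap of values between them wider than either group. The difference was 2.49 ± 0.14 (SE), or 5.61-fold (limma adjusted p = 1.7e-18). Cd36, the fatty acid translocase and scavenger receptor, ran from 9.76 (median 10.94) to 11.12 in Ly6C+ and from 12.20 (median 12.29) to 12.44 in Ly6C- arrays, a difference of 1.56 ± 0.13 (2.94-fold, adjusted p = 2.4e-13). All 6 Ly6C- arrays lay above all 6 Ly6C+ arrays, and the spread was wide in Ly6C+ (SD 0.52) and narrow in Ly6C- MFs (SD 0.09).

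Both cytosolic fatty acid carriers followed. Fabp4 ran from 8.12 (median 9.19) to 9.40 in WT Ly6C+ and from 10.36 (median 10.58) to 10.76 in Ly6C- MFs, 1.53 ± 0.15 higher (2.88-fold, adjusted p = 5.5e-11). Fabp5 ran from 10.19 (median 11.16) to 11.58 and from 12.39 (median 12.49) to 12.56, a difference of 1.40 ± 0.15 (2.65-fold, adjusted p = 3e-10). Neither gene's groups overlapped. The other Fabp5 probe set gave 1.43 for the same difference (adjusted p = 2.7e-10).

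Angptl4, the secreted inhibitor of Lpl, was higher in the same subset as its target, from 7.54 (median 7.82) to 7.93 in Ly6C- against 6.68 (median 7.0) to 7.24 in Ly6C+ MFs (0.81 ± 0.16, 1.75-fold, adjusted p = 8.8e-05). Gpat3, the acyltransferase of the first glycerolipid step, went down: 8.87 (median 9.32) to 9.65 in Ly6C+ and 7.51 (median 7.87) to 8.20 in Ly6C- MFs, 1.45 lower by mean, or 2.73-fold (adjusted p = 1.2e-11). It was the only member lower in Ly6C- MFs among those that passed in this contrast. Plin2 differed by 0.34 ± 0.08 (adjusted p = 0.00029) and Cpt1a by 0.42 ± 0.08 (adjusted p = 7.7e-05), each with no overlap between the 6 and 6 arrays. Pdk4 averaged 5.58 in Ly6C- and 5.65 in Ly6C+ MFs, a difference whose 95% interval ran from -0.25 to 0.12.

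Each of the 8 called differences was also called with WT replicates 1 to 3 alone and with replicates 4 to 6 alone. With replicates 1 to 3 and 4 to 6 in turn, Lpl differed by 2.33 and 2.65, Cd36 by 1.29 and 1.82, Fabp4 by 1.39 and 1.66, Fabp5 by 1.12 and 1.69, and Angptl4 by 0.80 and 0.81. Gpat3 read -1.21 and -1.69, Plin2 0.22 and 0.47, and Cpt1a 0.50 and 0.34.

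The same comparison was made in KO muscle. In KO muscle 8 of 9 members passed, where 38.4% of all genes did, with 7 higher (19.8% of all genes) and 1 lower (18.6%). Lpl read 9.29, 9.23, 8.68, 8.66 and 8.65 in KO Ly6C+ and 11.39, 11.58, 11.16, 11.32 and 11.23 in KO Ly6C- arrays, 2.43 ± 0.15 higher (5.40-fold, adjusted p = 1.3e-16). The other KO differences were 1.43 ± 0.14 for Cd36, 1.25 ± 0.17 for Fabp4, 0.72 ± 0.16 for Fabp5, 0.64 ± 0.18 for Angptl4, 0.53 ± 0.09 for Cpt1a and -1.71 ± 0.15 for Gpat3. Plin2 was higher by 0.21 ± 0.08 with an adjusted p of 0.041, and lost its call when any of 6 arrays was left out (lowest value 0.18, highest adjusted p = 0.096). Angptl4 read 7.57, 7.14, 8.19, 7.46 and 6.91 in KO Ly6C- arrays, a wider spread (SD 0.48) than the 0.15 of WT.

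Under rosiglitazone 7 of 9 members passed between the subsets, where 23.2% of all genes did, with 6 higher (14.6% of all genes) and 1 lower (8.68%). Lpl read 8.41, 8.95 and 8.21 in Ly6C+ and 11.77, 11.56 and 11.36 in Ly6C- MFs, 3.04 ± 0.19 higher. Fabp4 differed by 2.32 ± 0.21, Fabp5 by 2.04 ± 0.21, Angptl4 by 1.82 ± 0.23, Cd36 by 1.67 ± 0.18, Plin2 by 0.51 ± 0.11 and Gpat3 by -1.52 ± 0.19. Cpt1a, at 10.81 to 11.02 in Ly6C+ and 10.96 to 11.23 in Ly6C- MFs, overlapped here (0.21 ± 0.12, adjusted p = 0.23).

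**Figure D2:**
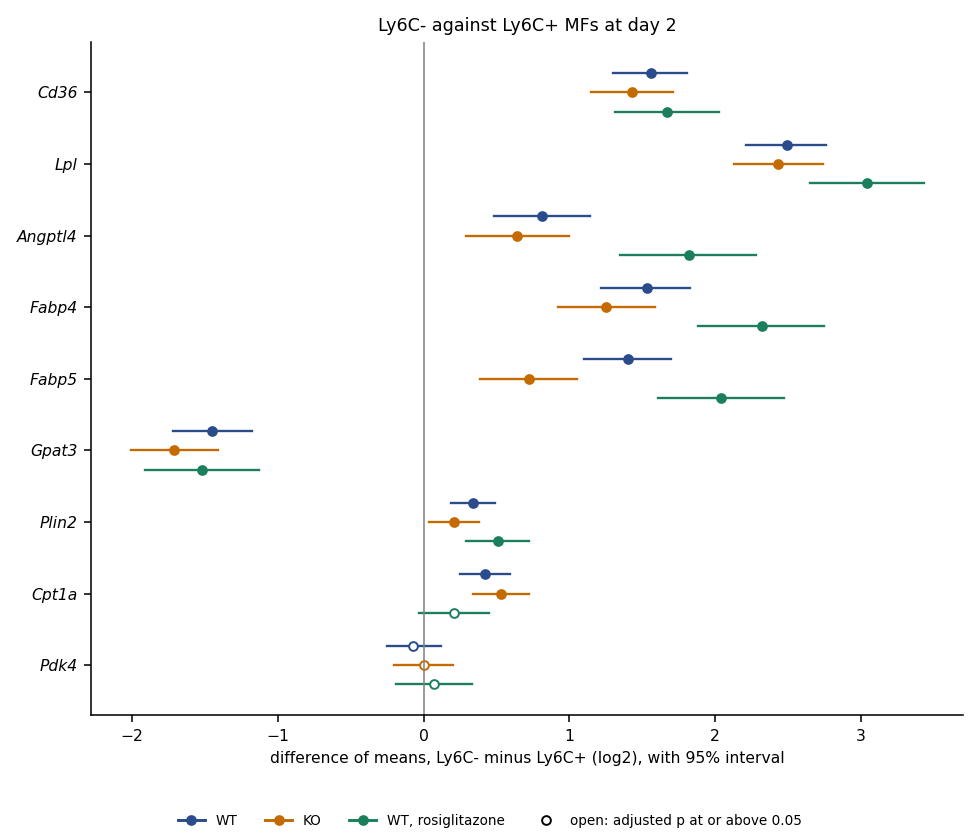
Difference of group means, Ly6C- minus Ly6C+ MFs at day 2 (x axis, log2, with the 95% interval as a line), for the 9 genes (y axis) in WT, KO and rosiglitazone-treated WT muscle; filled points passed at an adjusted p under 0.05. Lpl lay farthest to the right at 2.43 to 3.04, Gpat3 at -1.45 to -1.71, and Pdk4 within 0.07 of 0.

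Whether these subset differences themselves changed with genotype or drug was tested as an interaction. No member passed in either, and few genes did at all: 0.0100% for genotype by subset and 0.0150% for rosiglitazone by subset. The largest member values were -0.68 ± 0.22 for Fabp5 by genotype (1 member and 559 genes had an unadjusted p under 0.05) and 1.01 ± 0.28 for Angptl4 by rosiglitazone (adjusted p = 0.25, with 4 members and 1547 genes under 0.05 unadjusted). With untreated replicates 1 to 3 alone, Fabp4 (0.93, adjusted p = 0.031) and Fabp5 (0.92, adjusted p = 0.032) passed the rosiglitazone interaction, a fit in which 532 of 19938 genes did. With replicates 4 to 6 alone no member and no other gene did (1069 genes had an unadjusted p under 0.05), and Fabp4 stood at 0.65 (adjusted p = 0.92).

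Genes of the same pathways gave the setting at day 2 in WT, where 22.2% of all genes were higher, 23.0% were lower and the median over all genes was -0.07. Their lists were fixed by name, with earlier results of these data known. Among 17 measured genes of lipid uptake and fatty acid binding, 9 were higher and 3 lower in Ly6C- MFs (median difference 0.29), led by the fatty acid transporter Slc27a1 (1.61 ± 0.09) and the carriers Fabp3 (1.43 ± 0.12) and Fabp7 (1.1 ± 0.22). Among 18 genes of triglyceride synthesis and lipid droplets, 8 were higher and 3 lower (median 0.10). Dgat2, the acyltransferase of the last step, was lower by 1.24 on the log2 scale and Agpat4, of the second step, by 0.69, while the coat protein gene Plin3 was higher (0.77 ± 0.08). Of 7 lipolysis genes 3 rose and 3 fell, with Lipe, hormone-sensitive lipase, at -0.68 ± 0.09 with Pnpla2, adipose triglyceride lipase, at 0.33 ± 0.07 and its activator Abhd5 at 0.52 ± 0.06.

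Of 13 genes of mitochondrial entry and fuel choice 8 were higher, 0 were lower and 5 did not pass (median 0.30). Among those higher were Pdp1 (0.88 ± 0.09), Pdk2 (0.73 ± 0.10) and Cpt2 (0.52 ± 0.09). Pdp1 and Pdk2 act on pyruvate dehydrogenase in opposite senses, and Cpt2 completes the step begun by Cpt1a. Of 19 further PPAR targets 9 were higher and 2 lower (median 0.09), with Acaa2 at 0.92 ± 0.11, Acadl at 0.83 ± 0.08 and Abcg1 at 0.72 ± 0.15. Among 10 receptors and partners, Rxra, the partner of PPARg, was higher by 0.85 ± 0.09 and Ppargc1b by 0.47 ± 0.09, while Ppard was lower by 0.40 on the log2 scale. Their mean levels in Ly6C+ and Ly6C- MFs were 8.62 and 9.47 for Rxra, 9.81 and 9.41 for Ppard, 5.88 and 5.81 for Ppara and 10.31 and 10.38 for Pparg. In KO MFs, where 19.8% of all genes were higher and 18.6% lower, the counts of higher and lower genes were 8 and 2 for uptake, 9 and 3 for triglyceride synthesis, 8 and 0 for mitochondrial entry and 7 and 4 for the further targets.

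Markers of other cells moved between the WT subsets as well, where 22.2% of all genes were higher and 23.0% lower. Endothelial cells of muscle also express Cd36 and Fabp4, and 10 of 11 endothelium markers were lower in WT Ly6C- MFs, led by Cdh5 (-1.26 ± 0.12) and Emcn (-0.81 ± 0.17). The mean over the 11 markers ran from 6.55 to 7.24 across WT Ly6C+ and from 6.43 to 6.67 across WT Ly6C- arrays. Of 9 adipocyte markers 0 were higher and 3 lower, and Adipoq, the defining one, averaged 4.53 in Ly6C- and 4.56 in Ly6C+ MFs. Neutrophil markers were lower for 5 of 10 and higher for 1, and dendritic cell markers lower for 5 of 8. Fewer cells of such a type and less RNA per cell cannot be told apart in bulk arrays, and the part of these cells in the subset differences was not tested.

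The next comparison followed the Ly6C+ subset from day 1 to day 2. Fabp4 and Lpl rose in both genotypes, Fabp5 rose and Gpat3 fell in KO by the test, and Cd36 fell in WT. In WT 3 of 9 members passed, where 9.69% of all genes did, and in KO 4 of 9, where 8.64% did. Fabp4 read 8.17, 8.14, 8.04 and 7.65 in WT at day 1 and ran from 8.12 (median 9.19) to 9.40 at day 2, where 5 of 6 arrays lay above all day 1 arrays (1.04 ± 0.17, 2.05-fold, adjusted p = 4.1e-05). In KO it read 8.03, 8.0, 7.73 and 7.68 at day 1 and 9.53, 9.32, 9.02, 9.18 and 8.73 at day 2 (1.30 ± 0.18, 2.46-fold, adjusted p = 2.9e-06), with no overlap.

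Lpl rose by 0.90 ± 0.15 in WT (from 8.48, 8.09, 7.94 and 7.90, adjusted p = 8.8e-05) and by 0.93 ± 0.16 in KO (from 7.92, 8.04, 8.27 and 7.64, adjusted p = 0.00015), and in neither genotype did the days overlap. With WT day 2 replicates 1 to 3 and 4 to 6 in turn, the WT rise was 1.13 and 0.66 for Lpl and 1.25 and 0.83 for Fabp4, and each passed. Pparg itself rose by 1.1 ± 0.13 in WT and 1.08 ± 0.14 in KO over the same day on this probe set. Fabp5 rose in KO alone by the test, from 11.40, 11.02, 11.17 and 10.93 to 12.15, 12.01, 12.00, 11.76 and 11.67 (0.79 ± 0.17, adjusted p = 0.0031), against -0.13 ± 0.17 in WT. The difference between those changes was 0.92 ± 0.24 and did not pass (adjusted p = 0.20), in a fit where 0.0100% of all genes did. It passed with array quality weights (0.78, adjusted p = 0.031) and with the replicate block (0.93, adjusted p = 0.045). That block ties same-numbered arrays, which correlated at -0.206 to 0.09 in WT and -0.022 to 0.115 in KO between these days. The numbers were not taken as pairs here, so the pass with the block adds no support.

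Gpat3 fell by 0.65 on the log2 scale in KO (adjusted p = 0.007) and read -0.43 ± 0.15 in WT (adjusted p = 0.063, and 0.033 with replicates 1 to 3 at -0.52). Cd36 was lower at day 2 in WT by 0.46 on the log2 scale (adjusted p = 0.028), a call that was lost in 8 of 22 alternatives. Without WT Ly6C+ day 2 replicate 4, at 9.76 the lowest Cd36 array of the series, the value was -0.27 (adjusted p = 0.060), and it was also lost without WT day 1 replicate 1, 2 or 4. With replicates 1 to 3 alone it was -0.22 (adjusted p = 0.13).

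Day 4 MFs, labelled Ly6C+, were set against both day 2 subsets. Against day 2 Ly6C+ MFs, Lpl, Angptl4 and Cd36 were higher and Gpat3 lower in both genotypes. In WT 6 of 9 members passed, where 49.8% of all genes did, with 5 higher (23.8% of all genes) and 1 lower (26.0%). In KO 8 of 9 passed, where 44.8% did, with 5 higher (22.3%) and 3 lower (22.5%).

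Gpat3 read 6.72, 6.51, 6.58 and 6.59 in WT and 6.60, 6.93, 7.06 and 6.66 in KO at day 4, below every day 2 and day 1 array of its genotype. It fell by 2.70 on the log2 scale in WT (6.50-fold, adjusted p = 1.7e-18) and by 2.35 in KO (5.11-fold, adjusted p = 4.9e-16). Lpl, at 11.05, 10.91, 11.05 and 11.02 in WT and 11.00, 11.34, 10.67 and 11.02 in KO, was 2.00 ± 0.15 and 2.11 ± 0.16 above day 2 Ly6C+ MFs. Angptl4 read 7.83, 8.13, 8.35 and 8.53 in WT and 7.55, 7.77, 7.96 and 8.36 in KO, higher by 1.23 ± 0.18 and 1.1 ± 0.19. With WT day 2 replicates 1 to 3 and 4 to 6 in turn, the WT values were -2.61 and -2.79 for Gpat3, 1.77 and 2.24 for Lpl, 1.15 and 1.32 for Angptl4, 0.57 and 1.06 for Cd36, and 0.70 and 1.30 for Fabp5, and each passed.

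Cd36 stood between the day 2 subsets, at 11.53, 11.56, 11.60 and 11.57 in WT, and was 0.82 ± 0.14 above Ly6C+ and 0.74 below Ly6C- MFs by mean. Fabp5 was 1.00 ± 0.17 higher than in day 2 Ly6C+ MFs in WT (adjusted p = 3e-06) and 0.25 ± 0.17 in KO (adjusted p = 0.23). The genotype difference of the day 4 change was -0.75 ± 0.24 for Fabp5 (adjusted p = 0.36), and no member passed that interaction, in which 0.0301% of all genes did. Cpt1a was higher by 0.35 ± 0.09 in WT, where with replicates 4 to 6 alone it was 0.18 (adjusted p = 0.17), and by 0.44 ± 0.10 in KO. Fabp4 fell by 0.45 on the log2 scale in KO (adjusted p = 0.035), a call lost when any of 6 KO arrays was left out (highest adjusted p = 0.11), and read -0.12 ± 0.17 in WT (adjusted p = 0.55). Plin2 fell by 0.36 on the log2 scale in KO (adjusted p = 0.00072) and read -0.14 ± 0.08 in WT (adjusted p = 0.16, and 0.0071 at -0.25 with replicates 1 to 3).

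Against day 2 Ly6C- MFs the carriers, Plin2, Gpat3 and Cd36 were lower at day 4 in most tests. In WT 5 of 9 members passed, all 5 lower, where 29.3% of all genes passed, 14.1% higher and 15.2% lower. In KO 6 of 9 passed, 5 lower and 1 higher, where 24.8% passed, 13.1% higher and 11.8% lower. Fabp4 had the largest member difference, at 8.58, 8.61, 9.32 and 9.16 in WT and 8.62, 8.71, 8.66 and 8.83 in KO day 4 MFs. It fell by 1.65 on the log2 scale in WT (3.13-fold, adjusted p = 1.9e-10) and by 1.70 in KO (3.25-fold, adjusted p = 3.5e-10), with no array of either day overlapping. The WT value was -1.72 with day 2 replicates 1 to 3 and -1.57 with replicates 4 to 6.

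Gpat3 fell by 1.25 in WT and 0.64 in KO on this scale, Cd36 by 0.74 and 0.73, and Plin2 by 0.48 and 0.57. With day 2 replicates 1 to 3 and 4 to 6 in turn the WT values were -1.40 and -1.10 for Gpat3, -0.72 and -0.76 for Cd36 and -0.47 and -0.50 for Plin2, and each passed. Lpl fell by 0.48 in WT (adjusted p = 0.013, and 0.090 at -0.41 with replicates 4 to 6) and read -0.33 ± 0.16 in KO (adjusted p = 0.15). Fabp5 was -0.47 ± 0.17 in KO (adjusted p = 0.042), a call lost in 7 of 18 alternatives, 6 of them a left-out array, with a highest adjusted p of 0.14. Angptl4 stood on the other side of 0, at 0.43 ± 0.18 in WT (adjusted p = 0.074) and 0.45 ± 0.19 in KO (adjusted p = 0.077).

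Pdk4, the kinase that turns down pyruvate dehydrogenase, read 5.56, 5.77, 5.93 and 5.98 in KO at day 4, which was 0.30 ± 0.11 above day 2 Ly6C+ MFs (adjusted p = 0.022, lost without KO day 4 replicate 3 or 4) and 0.29 ± 0.11 above Ly6C- MFs (adjusted p = 0.036, lost in 7 of 17 alternatives). In WT it read 0.09 ± 0.10 and 0.16 ± 0.10 in these comparisons and did not pass. Every Pdk4 array lay below 6.88, the median over all gene means, and detection at this level was not tested. The genotype difference of the change from day 2 Ly6C+ MFs was 0.20 ± 0.15 (adjusted p = 0.75), and that from Ly6C- MFs was not tested. Skeletal muscle fibre markers were higher at day 4 beside it. Against day 2 Ly6C+ MFs 7 of 11 were higher and 0 lower in WT, and 7 higher and 1 lower in KO, led by Acta1 (1.32 ± 0.08 in WT, 1.01 ± 0.09 in KO). The mean over the 11 markers ran from 6.96 to 7.08 in WT and 6.87 to 7.02 in KO day 4 arrays, against 6.53 to 6.70 and 6.58 to 6.68 in day 2 Ly6C+ arrays. Fibroblast markers were higher for 2 of 8 in WT and 4 of 8 in KO, led by Postn, where 23.8% and 22.3% of all genes were higher. The part of these cells in the day 4 values of Pdk4 or of any other member was not tested.

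The triglyceride synthesis list split at day 4. Against day 2 Ly6C+ MFs in WT, 23.8% of all genes were higher and 26.0% lower. On this list 7 of 18 genes were higher and 7 lower (median difference 0.01). Hilpda, a hypoxia-induced droplet protein, fell by 2.43 and Agpat4 by 1.77, while Lpin1, a phosphatidate phosphatase, rose by 1.74. The scavenger receptor gene Olr1 fell by 3.95 in WT. The sterol genes Abcg1 (2.09 ± 0.17) and Cyp27a1 (2.05 ± 0.15) and the receptor gene Nr1h3 (1.23 ± 0.11) rose, among 8 higher and 2 lower of the 19 further PPAR targets.

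The genotype comparison asked how the members differ between KO and WT MFs. KO animals carried Cre at Lyz2 as well as floxed Pparg, and no group was labelled as having Cre with intact Pparg. Loss of Pparg and the Cre allele therefore cannot be told apart here, and the arrays did not check the loss itself. Of 36 differences between KO and WT, 9 genes in 4 conditions, Fabp5 in day 2 Ly6C+ MFs was the 1 that passed. At day 1 none passed (0 of 9, where 0.0351% of all genes did), with 621 genes and 0 members at an unadjusted p under 0.05, and the 95% intervals of the 9 differences lay between -0.63 and 0.46. Cd36 read 10.94, 10.84, 10.98 and 10.85 in KO and 11.29, 11.30, 11.11 and 11.14 in WT, so that the groups did not overlap, at -0.31 ± 0.15 (adjusted p = 1.0). Plin2 did not overlap either, at -0.04 ± 0.09. The SDs in KO and WT were 0.07 and 0.10 for Cd36 and 0.01 and 0.02 for Plin2. The SEs rest on the spread pooled over all groups, which includes wider ones, such as WT Ly6C+ day 2 (Cd36 SD 0.52). A missing call for these 2 genes therefore does not show equal levels at day 1. At day 4 none passed (0.0652% of all genes did), with 592 genes and 0 members at an unadjusted p under 0.05, and intervals between -0.70 and 0.55.

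In day 2 Ly6C- MFs none of the 9 passed and 0.201% of all genes did (1977 genes and 1 member, Gpat3, at an unadjusted p under 0.05). Among untreated groups Lpl, Cd36 and Fabp4 were highest in these MFs, while Angptl4 was higher at day 4. Lpl differed by -0.15 with an interval from -0.44 to 0.14, Cd36 by -0.02 (-0.29 to 0.25), Fabp4 by -0.16 (-0.48 to 0.16) and Angptl4 by -0.33 (-0.67 to 0.02). Each of these 4 intervals lay within a 2-fold change in either direction, and smaller changes cannot be told from none here. Gpat3 read 7.12, 7.45, 7.40, 7.42 and 7.88 in KO and 7.51 (median 7.87) to 8.20 in WT, at -0.40 ± 0.14 (adjusted p = 0.31). It passed with WT replicates 1 to 3 alone (-0.55, adjusted p = 0.022), a fit in which 14.4% of all genes did, and was the only member to do so. With replicates 4 to 6 alone no member passed, and 0.115% of all genes did.

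Fabp5 in day 2 Ly6C+ MFs read 12.15, 12.01, 12.00, 11.76 and 11.67 in KO and 11.21, 11.58, 11.35, 11.05, 10.19 and 11.12 in WT replicates 1 to 6. All 5 KO arrays lay above all 6 WT arrays. The difference was 0.83 ± 0.16, 1.78-fold higher in KO (limma adjusted p = 0.0032), where 1.88% of all genes passed. With WT replicates 1 to 3 alone it was 0.54 (adjusted p = 0.016), in a fit where 15.1% of all genes passed, and with replicates 4 to 6 alone 1.13 (adjusted p = 0.00063), where 1.62% did. The size thus differed with the WT arrays used, and Fabp5 was the only member called in either fit. A fit on the 11 arrays of the comparison gave an adjusted p of 0.14, where 13 genes in all passed, and the replicate block gave 0.84 (adjusted p = 0.057).

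Beside Fabp5, Slc27a1 (0.54 ± 0.09) and Fabp3 (0.51 ± 0.12) were higher and Cav1 (-0.81 ± 0.17) lower in KO day 2 Ly6C+ MFs. These were the only 3 of 17 uptake genes that passed, where 1.88% of all genes did. Of 19 further PPAR targets Acaa2 alone passed, higher in KO. None of the triglyceride synthesis, lipolysis, mitochondrial entry or receptor genes passed. In the other 3 genotype comparisons none of the genes on these lists passed. Endothelium markers were lower in KO for 4 of 11 and higher for 0, led by Emcn (-0.80 ± 0.18) and Cdh5 (-0.63 ± 0.12), and their mean ran from 6.63 to 6.75 in KO against 6.55 to 7.24 in WT arrays. Of 8 fibroblast markers 1, Dcn, was lower. The part of these cells in the Fabp5 value was not tested. The other 8 members had 95% intervals between -0.51 and 0.44 in this comparison.

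**Figure D3:**
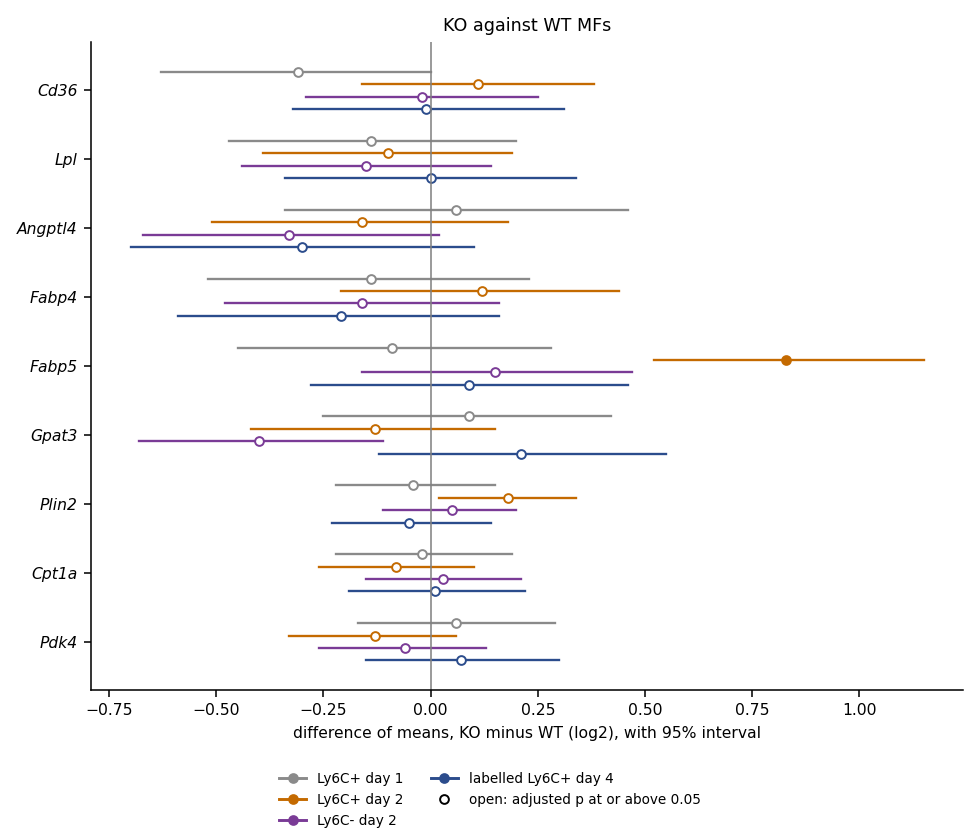
Difference of group means, KO minus WT (x axis, log2, with the 95% interval as a line), for the 9 genes (y axis) in 4 conditions; the filled point passed at an adjusted p under 0.05. Fabp5 in day 2 Ly6C+ MFs lay at 0.83, and the other 35 differences lay between -0.40 and 0.21.

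Rosiglitazone was compared with no treatment in each day 2 subset, against the same WT arrays that served the genotype comparison. In Ly6C- MFs Angptl4 was the 1 member of 9 that passed, where 0.0351% of all genes did. It read 9.76, 9.42 and 8.44 with rosiglitazone and 7.54 (median 7.82) to 7.93 in the 6 untreated arrays, so that no array overlapped, and it was 1.42 ± 0.20 higher, or 2.68-fold (adjusted p = 8.1e-05). The treated arrays spread more (SD 0.69) than the untreated (SD 0.15). The difference was 1.34 against replicates 1 to 3 (adjusted p = 0.00016) and 1.50 against replicates 4 to 6 (adjusted p = 0.0046). In a fit on the 9 arrays of the comparison 0 genes passed, with 1180 at an unadjusted p under 0.05, and Angptl4 lost its call (adjusted p = 0.14).

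In Ly6C+ MFs Angptl4 read 7.30, 7.63 and 7.23 with rosiglitazone against 6.68 (median 7.0) to 7.24, at 0.41 ± 0.20 (adjusted p = 0.18). The other 8 members in Ly6C- MFs had differences between -0.29 and 0.24, with Cd36 at 12.62, 12.49 and 12.47 above all untreated arrays (0.22 ± 0.15) and Plin2 at 12.96, 12.93 and 12.93 above all of them too (0.18 ± 0.09), neither past the test. Cpt1a, at 0.24 ± 0.10, passed against replicates 1 to 3 alone (0.33, adjusted p = 0.041), where 12.8% of all genes did and 2 members passed. Against replicates 4 to 6 alone 0.0150% of all genes passed, and Angptl4 was the 1 member.

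In Ly6C+ MFs 3 of 9 members passed, where 11.1% of all genes did: Cpt1a was higher and Fabp4 and Fabp5 were lower with the drug. Cpt1a read 11.02, 10.81 and 10.84, above all 6 untreated arrays at 10.19 (median 10.43) to 10.70 (0.46 ± 0.10, 1.37-fold, adjusted p = 0.0033). Fabp4 read 8.09, 8.59 and 8.50 against 8.12 (median 9.19) to 9.40 (-0.65 ± 0.19, adjusted p = 0.019), and Fabp5 9.80, 11.02 and 10.62 against 10.19 (median 11.16) to 11.58 (-0.60 ± 0.18, adjusted p = 0.027), both with overlap.

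These 3 calls rested on which untreated arrays were used. Against replicates 1 to 3 alone 4 of 9 members passed, Cpt1a at 0.62, Fabp4 at -0.85, Fabp5 at -0.90 and Lpl at -0.71, where 27.3% of all genes passed. Against replicates 4 to 6 alone 0 of 9 passed, Cpt1a at 0.29 (adjusted p = 0.17), Fabp4 at -0.44 (adjusted p = 0.33), Fabp5 at -0.30 (adjusted p = 0.50) and Lpl at -0.25 (adjusted p = 0.59), where 1.55% of all genes passed. Lyz2 stood at 13.00 in the treated Ly6C+ arrays, near replicates 4 to 6 and far above replicates 1 to 3. Fabp5 also lost its call without treated replicate 1 or 3, at -0.26 without replicate 1 (adjusted p = 0.43), or without untreated replicate 1, 2 or 3, and Fabp4 lost it without treated replicate 1 (-0.49, adjusted p = 0.17). On the 9 arrays of the comparison alone 0 genes passed, with 2982 at an unadjusted p under 0.05. Endothelium markers were lower with rosiglitazone for 4 of 11 and higher for 0, led by Cdh5 (-0.58 ± 0.14), where 11.1% of all genes passed in either direction. Their mean was 6.55 to 6.75 in treated and 6.55 to 7.24 in untreated arrays, and their part in the member differences was not tested.

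**Figure D4:**
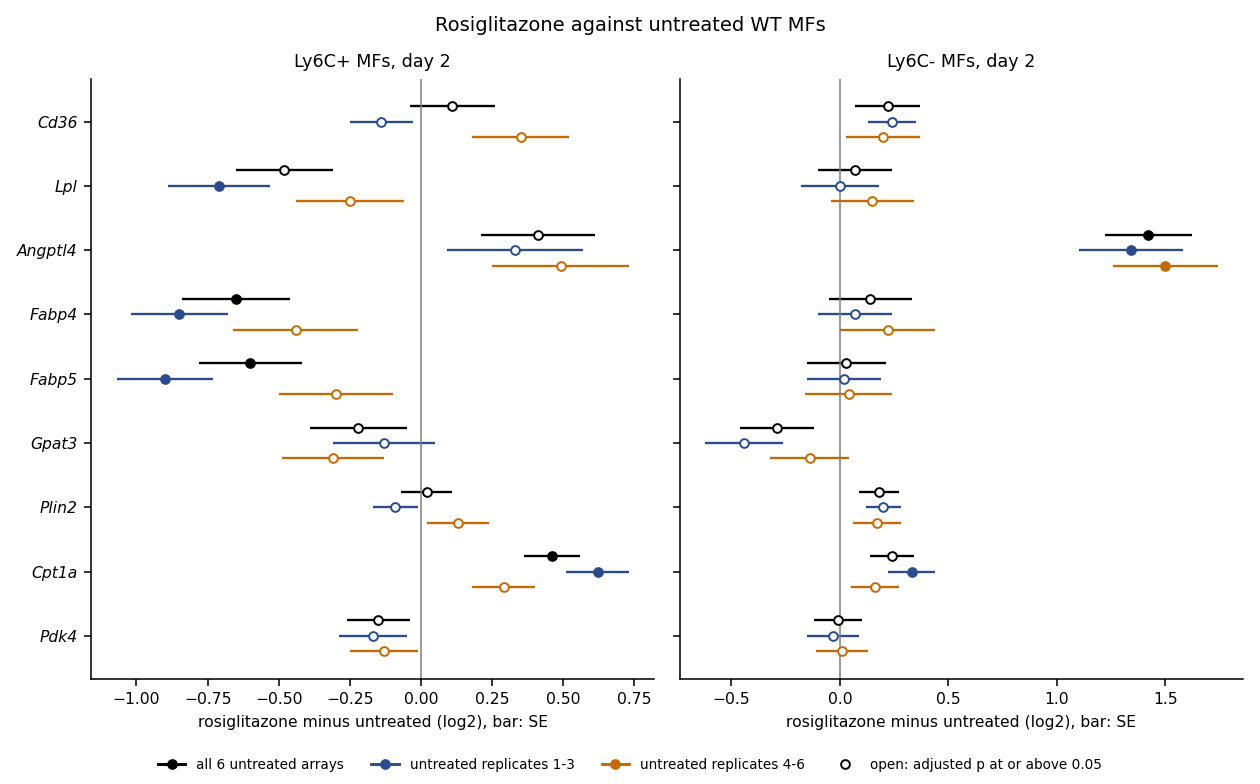
Difference of group means, rosiglitazone minus untreated WT (x axes, log2, with the SE as a bar), for the 9 genes (y axis) in Ly6C+ (left) and Ly6C- (right) MFs at day 2, against all 6 untreated arrays or replicates 1 to 3 or 4 to 6 alone; filled points passed at an adjusted p under 0.05. Angptl4 in Ly6C- MFs lay at 1.34 to 1.50 for every choice, while Fabp5 in Ly6C+ MFs moved from -0.90 to -0.30.

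Across the wider lists in Ly6C+ MFs, where 11.1% of all genes passed in either direction, 5 of 17 uptake genes were higher and 3 lower with rosiglitazone (Fabp7 at 1.13 ± 0.27, Acsl4 at -0.58 ± 0.16). Of 18 triglyceride synthesis genes 1 was higher and 4 lower (Hilpda at -1.31 ± 0.39, Dgat1 at -0.83 ± 0.18). Among the rest, of 19 further PPAR targets 1 was higher, Acaa2 (0.51 ± 0.14). Of 7 lipolysis genes 2 were higher and 2 lower, and of 13 genes of mitochondrial entry 1 was higher and 2 lower. In Ly6C- MFs 0 of the genes on any of these lists passed. The counts in Ly6C+ MFs used all 6 untreated arrays.

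Ordering the groups by level showed the same layout for Lpl and Cd36 at the top, with the 3 Ly6C- groups first and the day 4 groups next. For Lpl the Ly6C- means ran from 11.34 to 11.56 and overlapped each other, the day 4 groups followed at 11.01 in both genotypes, and no day 4 array overlapped the next group, WT Ly6C+ day 2, at 9.0. For Fabp4 the Ly6C- means of 10.41 to 10.71 stood apart, and the untreated day 2 Ly6C+ and the day 4 groups, with means of 8.70 to 9.15, each overlapped the next. Gpat3 ran from 9.82 and 9.73 at day 1, which overlapped, down to 6.60 in WT day 4 MFs. Angptl4 ran from 9.20 in rosiglitazone Ly6C- MFs to 6.77 in WT day 1 MFs, and each group in that order overlapped the next.

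Over the 44 arrays, as a description in which arrays share their groups, Lpl went with Fabp5 (r = 0.86), Cd36 (r = 0.85) and Fabp4 (r = 0.80) and against Gpat3 (r = -0.89). With group means removed these were 0.61 for Lpl with Fabp5, 0.25 with Cd36, 0.41 with Fabp4 and -0.30 with Gpat3, while Cd36 with Fabp4 kept 0.71 and Fabp5 with Plin2 had 0.62. The low WT Ly6C+ day 2 replicate 4 was shared by Cd36 (9.76) and Fabp4 (8.12), and the low replicate 5 by Fabp5 (10.19) and Plin2 (12.00).

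Among all genes the patterns most like each member, by Pearson's r over the 44 arrays, were as follows. Lpl was closest to Lipa, Syngr1 and Decr2 (r = 0.977 each), Gpat3 to Trem1 (r = 0.976), Pxk and Itga1 (r = 0.975 each), and Fabp4 to Bcar3 (r = 0.956). Fabp4 was followed by Washc5 (r = 0.954) and Carnmt1 (r = 0.937). Fabp5 was closest to Ctsl (r = 0.937), Wdr91 (r = 0.936) and Atp6v1g1 (r = 0.935), and Cd36 to Plpp3 (r = 0.927), Nme4 (r = 0.922) and Cblb (r = 0.914). Cpt1a was closest to Specc1 (r = 0.901), Lpcat3 (r = 0.899) and Ints3 (r = 0.895), Plin2 to Adssl1 (r = 0.859), Bcl2l1 and Calr (r = 0.858 each), and Angptl4 to Slco2b1 (r = 0.837), Stom (r = 0.827) and Gtse1 (r = 0.826). Pdk4 had the weakest nearest neighbour, Ogn (r = 0.641), a small proteoglycan of connective tissue, followed by Zfp773 (r = 0.625) and the muscle gene Klhl41 (r = 0.624).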

How the data were processed

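The deposited log2 values had been made by the authors with RMA (the name in the submitters' processing notes; its version was not given in the sources used here) from 150 ng of RNA per array, one value for each of 35556 probe sets. They ran from 1.46 to 13.6, array medians from 6.64 to 6.77, and were used without further normalization or filter. GEO's platform annotation gave 1 symbol to 21789 probe sets, several to 1621 (left out) and none to 12146 (unnamed here). The highest-mean probe set stood for each gene, giving 19938 genes. Arrays give no counts or depth, and their number limits precision.

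Groups followed the labels. One mean per group was fitted over all 44 arrays with limma 3.58.1 (lmFit, eBayes) in R 4.3.3, with two-sided tests (34 degrees of freedom from the residuals and 6.46 from the prior), and P values were adjusted by Benjamini-Hochberg over all genes at 0.05. Scripts were tested on simulated data. The members and lists were chosen with earlier results of these data known. Of each list, up to 3 passing genes of largest difference were named. Other named genes are markers used to check labels or were chosen after their values were seen.

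Same-numbered arrays correlated above 0.1 in every pair only between the rosiglitazone subsets (3 pairs, r from 0.134 to 0.443, after group means were removed), where the numbers were taken to pair the arrays, and 7 members passed with the replicate block as without it. Alternatives were array median centring, quantile normalization, a filter on dim genes, mean or lowest-mean probe set, arrays of the contrast only, replicate block, trend and robust prior, array quality weights, WT day 2 replicates 1 to 3 or 4 to 6, and each array left out. The lowest-mean probe set and joint removal of WT Ly6C+ day 2 replicates 4 and 5 were chosen after seeing the data. Fabp5 has a pseudogene copy in mouse, and whether its probes separate them was not tested. Promoter windows were RefSeq's on GRCm38.p6.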

Additional observations from a re-analysis of the deposited data

Results flagged for a closer look

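In 5 of 72 groups tested, 1 array's value of a member lay farther from the others than Dixon's test allows at 95%, where chance gives about 1 in 20. WT Ly6C+ day 2 replicate 4 was low for Cd36 (9.76, nearest other array 10.63) and for Fabp4 (8.12, nearest 8.97). Angptl4 was high in WT Ly6C+ day 1 replicate 4 (7.06, nearest 6.70), Fabp5 in WT labelled Ly6C+ day 4 replicate 4 (12.26, nearest 12.05) and Cpt1a in KO Ly6C- day 2 replicate 3 (11.18, nearest 10.84).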

How the results depend on the processing

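Of 60 member differences that passed, 47 passed under every alternative run and 13 lost the call in at least 1, and none changed direction. The number of members that passed moved in these comparisons. KO against WT Ly6C+ MFs at day 2 went from 1 to 0 on the arrays of the contrast alone and to 0 with the replicate block. KO against WT Ly6C- MFs at day 2 went from 0 to 1 with array quality weights and to 1 with WT replicates 1 to 3. Rosiglitazone in Ly6C+ MFs went from 3 to 0 on the arrays of the contrast alone, to 0 with WT replicates 4 to 6, and to between 1 and 4 with 1 array left out. Rosiglitazone in Ly6C- MFs went from 1 to 0 on the arrays of the contrast alone and to 2 with WT replicates 1 to 3. Rosiglitazone by subset went from 0 to 1 with array quality weights, 2 with WT replicates 1 to 3, 3 with WT Ly6C+ day 2 replicates 4 and 5 left out together, and 0 to 1 with 1 array left out. Genotype by day 2 over day 1 went from 0 to 1 with the replicate block and to 1 with array quality weights. The cause was not tested. The replicate block changed no other count by over 1.5 times. Same-number arrays of the WT subsets correlated at 0.011 to 0.600 (3 of 6 best with their own number) and of the KO subsets at 0.043 to 0.285 (4 of 5), so these share at least a number. Groups of 3 to 6 arrays, a wide WT Ly6C+ day 2 group and the Lyz2 split limit the genotype and rosiglitazone comparisons.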
